A study of Mus musculus with 20 samples.

Results

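The 10 genes described here, Csf1r, Csf1, Adgre1, Mrc1, Trem2, Gpnmb, Cd68, Itgam, Lyz2 and Itgb2, are genes by which macrophages are commonly recognised, and they were taken by symbol. All 10 were found among the 47069 genes of the count table and among the 33368 entries of the FPKM table, where Adgre1 stands under its older symbol Emr1. Kidney RNA was sequenced at 15 weeks of age from 20 mice of 129SJ x C57Bl/6J background, which fell into 4 groups. The 5 WT mice carried an intact Col4a3 gene and received nothing. The other mice were Col4a3-/- mice, which lack the α3 chain of type IV collagen and model Alport syndrome, and were given weekly PBS (Veh, n = 6), weekly lademirsen, an oligonucleotide against miR-21, at 50 mg/kg under the skin (anti-miR-21, n = 6), or the angiotensin-converting enzyme inhibitor ramipril in the drinking water at 11 mg/L (ACEi, n = 3). Treatment began at 5 weeks of age. The deposited library table gives the ramipril dose as 4 mg/kg instead, and the study's methods state that ACEi mice were also injected with vehicle. The knockout was present from birth in every cell, so no group separates an effect within macrophages from one on the kidney as a whole.

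Tissue macrophages depend on CSF1R, a receptor tyrosine kinase that binds CSF1 and IL-34 and carries the survival and proliferation signal of the lineage. In the kidney a resident population seeded before birth lies between the tubules, and monocytes from blood join it after injury and take on macrophage features. The remaining genes stand for other sides of the cell: surface receptors (Adgre1, Mrc1), phagocyte receptors and lysosomal proteins (Trem2, Gpnmb, Cd68, Lyz2) and the chains of the adhesion receptor CR3 (Itgam, Itgb2). In whole-kidney RNA, a change in the number of cells that express a gene cannot be told apart from a change in the RNA of that gene per cell.

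The promoters are shown first for 4 of the genes, Mrc1 and Gpnmb, in which the treatments stood furthest apart, and Trem2 and Cd68, which are described with Gpnmb as phagocyte genes. Promoters of 250 bases before to 50 bases after the start were read from RefSeq (GRCm38.p6) for 7 of the 10 genes, Csf1, Mrc1, Trem2, Gpnmb, Cd68, Itgam and Lyz2. Capitals mark matches on either strand to any of 4 motifs: GAGGAA (the core bound by PU.1, the transcription factor that sets myeloid identity), CACGTG (the E-box of MITF and TFE factors), TTGCNNAA (C/EBP) and TGANTCA (AP-1). No 2 of these motifs overlapped in the sequences printed.
Mrc1, chr2:14229164-14229463, plus strand: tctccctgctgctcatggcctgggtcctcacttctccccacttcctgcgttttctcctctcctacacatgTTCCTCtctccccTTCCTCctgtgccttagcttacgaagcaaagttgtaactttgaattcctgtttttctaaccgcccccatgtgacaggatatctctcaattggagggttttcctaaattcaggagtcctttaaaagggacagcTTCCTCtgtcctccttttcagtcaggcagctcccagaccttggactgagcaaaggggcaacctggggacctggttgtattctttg
Gpnmb, chr6:49036268-49036567, plus strand: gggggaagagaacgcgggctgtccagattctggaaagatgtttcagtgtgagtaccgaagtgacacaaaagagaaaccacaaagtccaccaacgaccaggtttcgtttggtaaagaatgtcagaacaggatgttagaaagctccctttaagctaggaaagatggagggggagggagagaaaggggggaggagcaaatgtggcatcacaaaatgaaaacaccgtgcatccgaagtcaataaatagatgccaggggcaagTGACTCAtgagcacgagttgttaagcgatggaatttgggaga
Trem2, chr17:48346151-48346450, plus strand: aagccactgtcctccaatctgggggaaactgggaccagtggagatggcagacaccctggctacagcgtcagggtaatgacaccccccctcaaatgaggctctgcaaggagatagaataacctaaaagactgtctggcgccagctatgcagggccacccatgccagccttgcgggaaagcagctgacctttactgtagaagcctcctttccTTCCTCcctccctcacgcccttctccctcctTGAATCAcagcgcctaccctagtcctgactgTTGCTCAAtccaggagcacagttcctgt
Cd68, chr11:69666121-69666420, minus strand: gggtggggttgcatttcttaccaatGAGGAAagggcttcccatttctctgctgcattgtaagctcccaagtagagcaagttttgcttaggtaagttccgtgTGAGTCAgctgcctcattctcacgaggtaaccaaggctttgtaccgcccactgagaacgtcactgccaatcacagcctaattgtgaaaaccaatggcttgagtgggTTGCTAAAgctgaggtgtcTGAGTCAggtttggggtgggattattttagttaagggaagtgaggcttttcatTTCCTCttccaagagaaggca
The PU.1 core was present in 4 of the 7 promoters (Mrc1, Itgam, Cd68 and Trem2), beside 28.3% of all 27025 promoters of the same length. Mrc1 and Itgam held 3 matches each, Cd68 2 and Trem2 1. The AP-1 letters occurred in Gpnmb, Cd68 and Trem2, 3 of 7, beside 7.93% of all promoters, and the C/EBP letters in Cd68 and Trem2, 2 of 7, beside 10.8%. None of the 7 windows held the E-box, which 7.24% of all promoters did. A match describes letters only, and binding was not measured.

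The count table held between 28474301 and 29479629 estimated counts per mouse. Counts were scaled with edgeR's TMM method and are given as CPM, counts set to a fixed library size, and group differences as log2 fold changes with their standard error (SE) from edgeR's quasi-likelihood test across 17622 genes, called at a Benjamini-Hochberg adjusted p under 0.05. Over all genes tested the median log2 fold change was between -0.05 and 0.07 in each of the 6 comparisons. TMM scaling places the bulk of genes near 0, so this median is not an independent background. The TMM factors were 0.771 to 0.850 in WT and 1.12 to 1.26 in Veh, and lay between these ranges in each treated mouse. All 10 macrophage genes passed the filter on low counts. Col4a3, the gene disrupted in the knockout, stood at 217 ± 16.4 CPM (SD, n = 5) in WT and at 37.8 ± 7.63 (n = 6) in Veh, and every Col4a3-/- mouse was below every WT mouse. The extraction text in the labels names adipose tissue, whereas the tissue label is kidney. Summed CPM of 4 proximal tubule markers was 11374 to 14610 in WT and 1217 to 3495 in Veh, and that of 5 adipocyte markers was 0.656 to 6.91 in WT, 0.677 to 120 in Veh, 1.76 to 99.7 in the anti-miR-21 group and 0.394 to 3.04 in ACEi. Veh mice 1, 2 and 3 and 1 anti-miR-21 mouse (4) had an adipocyte score, the mean log2 CPM of those 5 markers, above 2. The library names open with 1 of 2 run codes, which are read here as 2 flow cells. Flow cell A held 13 mice and B held 7, and the ACEi mice were divided 1 to A and 2 to B. The labels name separate mice and pair none of them, so p-values measure the spread between these mice.

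All 10 macrophage genes rose in Veh compared to WT kidneys, 2.03-fold for Csf1r and between 7.32-fold and 30.6-fold for the others. Over all genes tested 39.0% were called higher. Anti-miR-21 treatment lowered 9 of them, beside 30.5% of all genes, and ACEi treatment lowered all 10, beside 19.1% of all genes. The ACEi calls of Adgre1 and Itgb2 passed under 12 and 13 of 23 alternatives. Csf1r under anti-miR-21 was the only one not called higher than WT afterwards. Over all genes 23.9% were called higher than WT under anti-miR-21 and 25.2% under ACEi. Between the treatments Mrc1 was called lower under anti-miR-21 than under ACEi, a call that passed under 10 of 23 alternatives. Gpnmb stayed near Veh levels in 3 of the 6 anti-miR-21-treated mice and was low in all 3 ACEi mice, a difference that was not called (adjusted p = 0.0952). The plot of CPM by mouse shows the separate values.

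**Figure D1:**
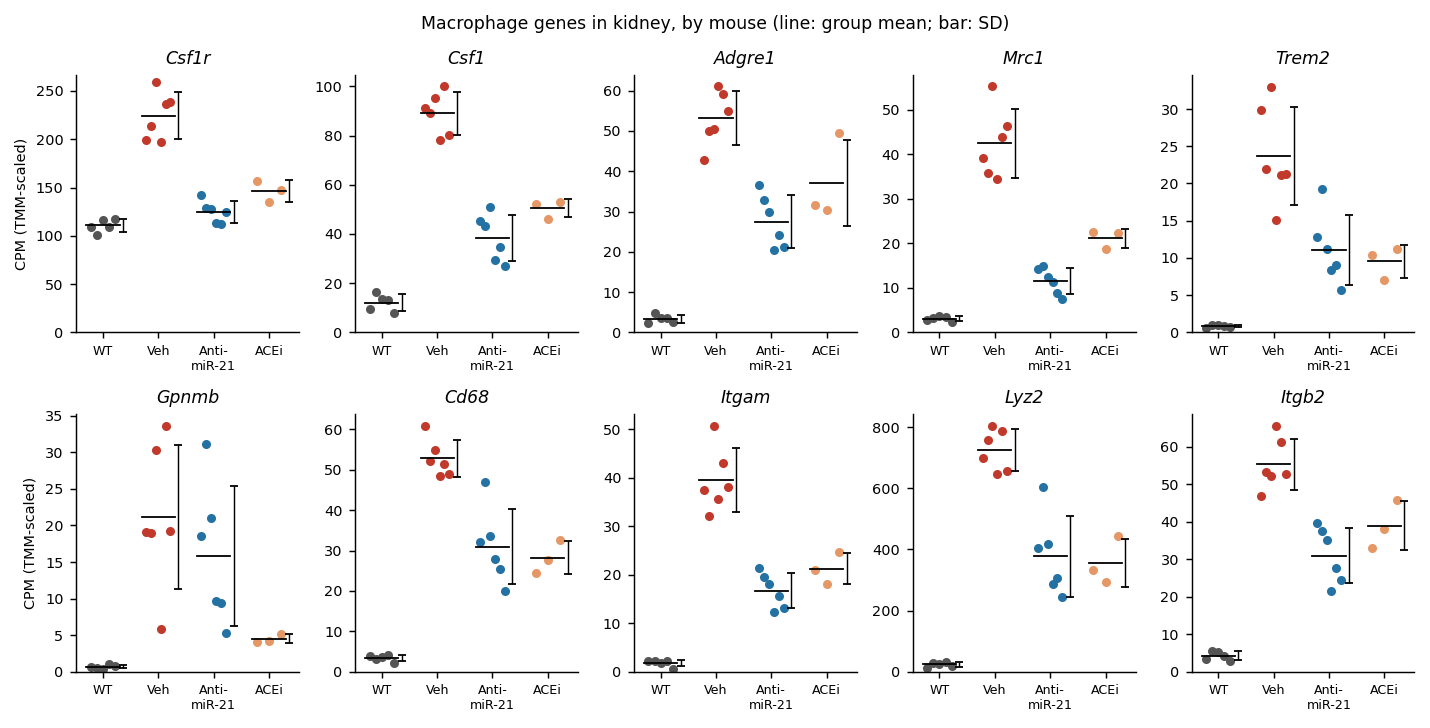
CPM of each macrophage gene on the y axis (linear, from 0) by group, each point 1 mouse, the horizontal line the group mean and the bar its SD. In all 10 panels every Veh mouse lies above every WT mouse. Mrc1 is lower in each anti-miR-21 mouse (7.44 to 14.8 CPM) than in each ACEi mouse (18.6 to 22.5), and Gpnmb spreads from 5.35 to 31.1 CPM under anti-miR-21.

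Between Veh and WT the 10 of 10 genes called higher compare with 39.0% of all genes called higher and 34.0% called lower, and the 10 of 10 whose groups did not overlap compare with 28.8% of all genes that were higher without overlap. Their median log2 fold change was 3.99, beside 0.07 for all genes tested, a median that the scaling keeps near 0. The count was 10 with flow cell or the adipocyte score as a term, within either flow cell, and without the 4 mice of high adipocyte score.

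Csf1r (ENSMUSG00000024621, chromosome 18, 61100598 to 61132149, plus strand, GRCm38), the receptor, was measured at 109, 101, 116, 109 and 118 CPM in WT and at 198, 226 and 259 CPM (lowest, median, highest) in Veh. The groups were far apart for so small a fold change, since the mice within each were alike. The rise was 1.02 on the log2 scale (SE 0.08, adjusted p = 6.08e-10), the smallest of the 10. Its size depended on the processing, with 0.94 to 1.69 over 25 alternatives, all of them called. Under anti-miR-21 it ranged from 112 through a median of 126 to 142 CPM, and the ACEi mice had 157, 135 and 147. Every treated mouse was below every Veh mouse, and 2 of the 6 anti-miR-21 mice lay within the WT range. Csf1r fell by 0.85 (SE 0.08, adjusted p = 4.97e-08) with anti-miR-21 and by 0.62 (SE 0.09, adjusted p = 5.46e-05) with ACEi. Against WT the anti-miR-21 group was 0.17 higher (95% interval 0.01 to 0.34, adjusted p = 0.0834), which did not pass, and the ACEi group 0.40 higher (adjusted p = 0.00165). The call against WT in the anti-miR-21 group passed under 6 of 25 alternatives, among them library totals without TMM factors (0.42, adjusted p = 0.00248). Csf1r overlaps Hmgxb3 on the other strand by 873 bases. Hmgxb3 went the other way, from 31.3 ± 2.17 CPM (n = 5) in WT to 19.7 ± 1.52 (n = 6) in Veh, and how many reads the overlap shares was not tested.

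The ligand Csf1 (ENSMUSG00000014599, chromosome 3, 107741048 to 107760469, minus strand) is made mainly by stromal, endothelial and epithelial cells, so it marks supply of the growth factor more than macrophages themselves. WT kidneys had 9.49, 16.5, 13.8, 13.1 and 7.84 CPM, and Veh kidneys 78.2, 90.1 and 100.2 (lowest, median, highest). The rise was 2.87 on the log2 scale (SE 0.18, adjusted p = 3.92e-11), the smallest after Csf1r. It stood at 26.9, 38.8 and 50.8 CPM (lowest, median, highest) under anti-miR-21 and at 52.3, 46.2 and 52.9 under ACEi. All 9 treated mice were between the WT and the Veh range. Csf1 fell by 1.21 (SE 0.16, adjusted p = 1.92e-06) with anti-miR-21 and by 0.82 (SE 0.20, adjusted p = 0.00263) with ACEi. The direct difference, anti-miR-21 minus ACEi, was -0.40 (SE 0.19, adjusted p = 0.340). Il34, the second CSF1R ligand, which tubule cells make, followed the same order, with 60.6 ± 10.4 CPM (n = 5) in WT, 136 ± 18.1 (n = 6) in Veh, 76.9 ± 10.2 (n = 6) under anti-miR-21 and 106 ± 10.5 (n = 3) under ACEi. Its changes were 1.17 (adjusted p = 2.67e-08) for Veh against WT, -0.82 (adjusted p = 3.68e-06) for anti-miR-21 against Veh and -0.37 (adjusted p = 0.0409) for ACEi against Veh.

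Adgre1 (ENSMUSG00000004730, chromosome 17, 57358691 to 57483527, plus strand) encodes F4/80, the adhesion receptor by which mouse macrophages are usually stained. It was nearly absent from WT at 2.27, 4.76, 3.46, 3.52 and 2.52 CPM and reached 42.8, 52.8 and 61.1 CPM (lowest, median, highest) in Veh, a rise of 4.0 (SE 0.21, adjusted p = 3.78e-12). Anti-miR-21-treated mice had 20.3, 27.0 and 36.7 CPM (lowest, median, highest), with no overlap with Veh, and the ACEi mice had 31.5, 30.4 and 49.5. The third ACEi mouse was within the Veh range and the other two were below it. Adgre1 fell by 0.95 (SE 0.16, adjusted p = 5.25e-05) with anti-miR-21. With ACEi it fell by 0.52 (SE 0.20, adjusted p = 0.0477), a call that was lost, with adjusted p between 0.0740 and 0.232, when any one of Veh mice 2 to 6 or of ACEi mice 1 and 2 was left out, and with flow cell as a term (adjusted p = 0.0639). Within flow cell A, where the third ACEi mouse stands alone, the difference was -0.02, and within flow cell B it was -0.90.

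Mrc1 (ENSMUSG00000026712, chromosome 2, 14229392 to 14332057, plus strand) encodes the mannose receptor CD206, an endocytic lectin of resident and alternatively activated macrophages. It was measured at 2.85, 3.28, 3.67, 3.35 and 2.27 CPM in WT and at 34.4, 41.5 and 55.2 CPM (lowest, median, highest) in Veh, a rise of 3.78 (SE 0.19, adjusted p = 2.17e-12). In the anti-miR-21 group the values were 7.44, 11.8 and 14.8 CPM (lowest, median, highest), and in ACEi 22.5, 18.6 and 22.2. The 4 groups stood fully apart, in the order WT, anti-miR-21, ACEi, Veh. The fall with anti-miR-21 was the largest of the 10 genes (-1.88, SE 0.15, adjusted p = 3e-08), 3.68-fold lower, and with ACEi the level fell by 1.01 (SE 0.19, adjusted p = 0.000333). Mir511, which lies inside Mrc1, had 0 counts in all 20 mice.

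Trem2 (ENSMUSG00000023992, chromosome 17, 48346401 to 48354147, plus strand), a lipid-sensing receptor of phagocytes that signals through the adaptor TYROBP, had 0.624, 1.03, 0.929, 0.899 and 0.713 CPM in WT, from 14 to 25 counts per mouse. In Veh it reached 15.0, 21.6 and 33.0 CPM (lowest, median, highest), a rise of 4.81 (SE 0.32, adjusted p = 6.03e-11). Under anti-miR-21 it spanned 5.70, 10.1 and 19.3 CPM (lowest, median, highest), and the ACEi mice had 10.4, 7.05 and 11.2. Anti-miR-21 mouse 2, at 19.3 CPM, lay above Veh mouse 4, at 15.0, and this was the only overlap. Trem2 fell by 1.10 (SE 0.23, adjusted p = 0.000345) with anti-miR-21 and by 1.31 (SE 0.29, adjusted p = 0.0015) with ACEi. Tyrobp itself went from 2.82 ± 0.922 CPM (n = 5) in WT to 48.5 ± 7.37 (n = 6) in Veh, 23.1 ± 5.37 (n = 6) under anti-miR-21 and 27.8 ± 7.66 (n = 3) under ACEi.

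Gpnmb (ENSMUSG00000029816, chromosome 6, 49036546 to 49070929, plus strand), a lysosome-associated transmembrane glycoprotein of lipid-laden and scar-associated macrophages, had the widest spread relative to its mean among the 10 genes in Veh and in the anti-miR-21 group. WT kidneys had 0.624, 0.533, 0.422, 1.06 and 0.797 CPM, from 10 to 26 counts per mouse. The 6 Veh mice had 5.89, 19.2 and 33.6 CPM (lowest, median, highest), and Veh mouse 4 was the low one, while the other 5 had 19 CPM or more. The rise over WT was 4.93 (SE 0.52, adjusted p = 3.71e-08). Anti-miR-21-treated mice 1 to 6 had 18.6, 31.1, 21, 9.67, 9.34 and 5.35 CPM, and the ACEi mice 4.0, 4.26 and 5.18. Mice 1, 2 and 3 of the anti-miR-21 group were therefore within or just under the level of those 5 Veh mice, mice 4 and 5 stood between them and Veh mouse 4, and mouse 6 was below every Veh mouse. All ACEi mice were below every Veh and every anti-miR-21 mouse. The fall with anti-miR-21 was 0.42 (SE 0.36, 95% interval of the log2 fold change -1.17 to 0.33, adjusted p = 0.329) and did not pass, an interval that includes both no change and a marked fall. With ACEi it fell by 2.24 (SE 0.50, adjusted p = 0.00162), the largest fall of the 10 genes in that group. Within flow cell B, with 1 anti-miR-21 mouse, the anti-miR-21 difference from Veh was 0.74 in the other direction.

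Cd68 (ENSMUSG00000018774, chromosome 11, 69664213 to 69666153, minus strand), a lysosomal membrane glycoprotein of phagocytes, went from 3.79, 3.16, 3.59, 4.13 and 2.06 CPM in WT to 48.4, 51.8 and 60.9 (lowest, median, highest) in Veh, a rise of 3.98 (SE 0.20, adjusted p = 2.35e-12). Under anti-miR-21 it had 19.9, 29.9 and 47.0 CPM (lowest, median, highest), and under ACEi 24.5, 27.8 and 32.5. No treated mouse reached the Veh range, and anti-miR-21 mouse 2 came closest. Cd68 fell by 0.77 (SE 0.15, adjusted p = 0.000255) with anti-miR-21 and by 0.90 (SE 0.20, adjusted p = 0.0012) with ACEi.

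Lyz2 (ENSMUSG00000069516, chromosome 10, 117277331 to 117282321, minus strand), the lysozyme of macrophages and granulocytes, had 12, 29.3, 25.9, 32.9 and 18.7 CPM in WT and 646, 729 and 804 CPM (lowest, median, highest) in Veh, a rise of 4.93 (SE 0.27, adjusted p = 7.38e-12). The anti-miR-21 mice had 243, 355 and 606 CPM (lowest, median, highest), the highest again being mouse 2, and the ACEi mice 332, 293 and 445. Neither treated group overlapped Veh. Lyz2 fell by 0.94 (SE 0.21, adjusted p = 0.000797) with anti-miR-21 and by 1.02 (SE 0.27, adjusted p = 0.00545) with ACEi. Its neighbour and paralogue Lyz1, the lysozyme of Paneth cells, shares 437 of 1287 30-base stretches (34.0%) of the Lyz2 transcripts, so reads could be divided between both. Lyz1 rose with the knockout too, by 4.05 (adjusted p = 4.08e-09) from 0.329 ± 0.143 CPM (n = 5) to 5.50 ± 1.89 (n = 6), but it was 5.23 ± 1.89 (n = 6) under anti-miR-21, a difference from Veh of -0.07 (SE 0.26, adjusted p = 0.834).

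Itgam (ENSMUSG00000030786, chromosome 7, 128062640 to 128118491, plus strand) and Itgb2 (ENSMUSG00000000290, chromosome 10, 77530252 to 77565708, plus strand) encode CD11b and CD18, the chains of complement receptor 3, which monocytes, macrophages and neutrophils share. Itgam had 2.23, 2.30, 1.77, 2.13 and 0.629 CPM in WT and 32.0, 37.8 and 50.7 CPM (lowest, median, highest) in Veh, a rise of 4.44 (SE 0.23, adjusted p = 3.13e-12). Itgb2 had 3.43, 5.62, 5.24, 4.17 and 2.98 CPM in WT and 46.8, 52.9 and 65.6 (lowest, median, highest) in Veh, a rise of 3.69 (SE 0.19, adjusted p = 2.98e-12). Both genes were therefore low in each WT mouse and high in each Veh mouse. Under anti-miR-21 Itgam stood at 12.3, 16.8 and 21.4 CPM (lowest, median, highest), and under ACEi at 21, 18.1 and 24.6. Itgb2 stood at 21.5, 31.3 and 39.5 CPM (lowest, median, highest) under anti-miR-21 and at 33.0, 38.0 and 45.9 under ACEi, and ACEi mouse 3 was just below the lowest Veh mouse, at 46.8. Itgam fell by 1.24 (SE 0.17, adjusted p = 4.51e-06) with anti-miR-21 and by 0.89 (SE 0.22, adjusted p = 0.00278) with ACEi. Itgb2 fell by 0.84 (SE 0.15, adjusted p = 7.99e-05) with anti-miR-21 and by 0.51 (SE 0.19, adjusted p = 0.0351) with ACEi. The ACEi call of Itgb2 was lost, with adjusted p between 0.0547 and 0.176, when any one of Veh mice 2 to 6 or of ACEi mice 1 and 2 was left out, and with flow cell as a term (adjusted p = 0.0504). Itgam overlaps Gm49368 on the same strand over 55809 bases. Gm49368 was given at most 0.660 CPM in any mouse, so few reads were assigned to it, and how reads of the shared stretch were handled was not tested.

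The plot of fold changes sets the comparisons side by side. Anti-miR-21 lowered 9 of the 10 genes against 30.5% of all genes called lower and 28.8% called higher, and 8 of the 10 were lower without overlap against 17.9% of all genes. ACEi lowered 10 of the 10 against 19.1% of all genes called lower and 21.0% called higher, and 9 of the 10 were lower without overlap against 18.8% of all genes. The comparisons share the 6 Veh mice. The median log2 fold change of the 10 genes was -0.95 for anti-miR-21 and -0.90 for ACEi, beside -0.04 and -0.05 for all genes. The scaling keeps these medians of all genes near 0. The ACEi count was 8 with flow cell as a term, 8 with no filter on low counts (Adgre1 adjusted p = 0.0728, Itgb2 adjusted p = 0.0551) and 8 to 10 when 1 mouse was left out. Within flow cell A alone the ACEi count was 1 of 10, with 1 ACEi mouse, and within flow cell B 4 of 10. The anti-miR-21 count was 9 within flow cell A and 2 within flow cell B, with 1 anti-miR-21 mouse there. Without the 4 mice of high adipocyte score 9 genes were called lower in each comparison.

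**Figure D2:**
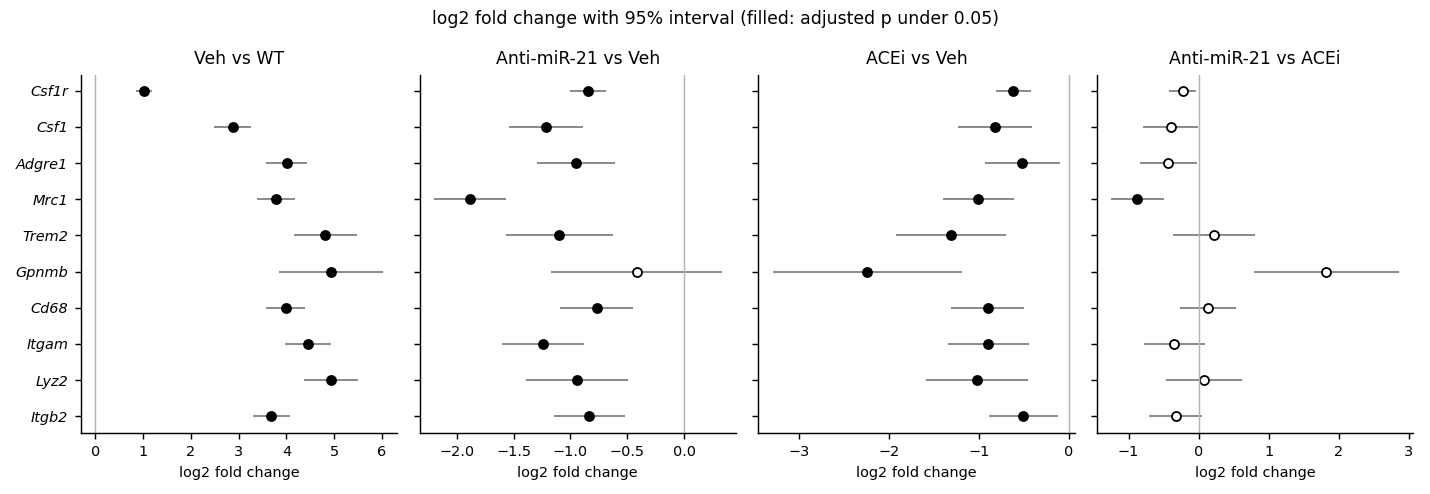
log2 fold change of each gene on the x axis with its 95% interval, in 4 panels for Veh vs WT, anti-miR-21 vs Veh, ACEi vs Veh and anti-miR-21 vs ACEi; filled points passed an adjusted p of 0.05 and open points did not. Csf1r has the smallest rise (1.02), Gpnmb is the open point in the second panel (-0.42), and Mrc1 is the filled point in the last (-0.87), where Gpnmb is the farthest to the right (1.82).

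The direct comparison of the treatments called 1 of the 10 genes, Mrc1, lower under anti-miR-21, against 0.221% of all genes called lower and 0.363% called higher. With the 103 genes called in all, 2562 had an unadjusted p under 0.05. The share of all genes without overlap between the treatments was not computed. Il34, Irf5 and Axl, which were not called, also did not overlap between them. Mrc1 was 0.87 lower on the log2 scale under anti-miR-21 than under ACEi (SE 0.18, adjusted p = 0.0304), lower in 6 of 6 mice than in any ACEi mouse. The difference kept its direction under all 23 alternatives, between -0.97 and -0.73, and passed the threshold under 10 of them, with adjusted p from 0.00146 to 1. It did not pass when anti-miR-21 mouse 4 or 5 or any one of the 3 ACEi mice was left out (adjusted p between 0.0524 and 0.201), with the adipocyte score as a term (adjusted p = 0.0654), or without the 4 mice of high adipocyte score (adjusted p = 0.0671). Within flow cell A it was -0.97 and within flow cell B -0.73, and neither passed.

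Gpnmb pointed the other way. It was 1.82 higher under anti-miR-21 than under ACEi (SE 0.50, 95% interval 0.79 to 2.86), a 3.54-fold difference with an unadjusted p of 0.00152 and an adjusted p of 0.0952, which did not pass, although no ACEi mouse reached the lowest anti-miR-21 mouse (5.35 against 5.18 CPM). Its adjusted p ranged from 0.0223, with DESeq2, to 1 over 23 alternatives, and it passed under that one alone. Within flow cell A the difference was 1.52 and within flow cell B 2.34. For the other 8 genes the differences lay between -0.43 (Adgre1, 95% interval -0.84 to -0.02, adjusted p = 0.318) and 0.22 (Trem2, -0.37 to 0.81, adjusted p = 0.759), none of them called. Trem2, Cd68 and Lyz2 were the 3 others with a mean above that of ACEi, and leaving out anti-miR-21 mouse 2 turned all 3 below it, to -0.01, -0.02 and -0.11.

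How far each gene returned toward WT was described on the log2 CPM scale as a percentage of the gap between the Veh and WT means, with 0% at Veh and 100% at WT. Csf1r returned by 83.2% ± 12.6 (SD, n = 6) under anti-miR-21 and by 60.4% ± 11.0 (n = 3) under ACEi, on this scale the highest mean in each group. With log2(FPKM + 1) Gpnmb stood first under ACEi, at 64.9%, above Csf1r. Mrc1 followed under anti-miR-21 with 50.6% ± 10.3, beside 26.4% ± 4.02 under ACEi, and Csf1 with 42.8% ± 12.6, beside 28.0% ± 3.72. The other 7 genes were between 10.0% and 27.9% under anti-miR-21. Under ACEi, Gpnmb came second with 43.7% ± 4.08, beside 10.0% ± 19.8 under anti-miR-21, and the lowest were Adgre1 with 13.5% ± 9.75 and Itgb2 with 13.8% ± 6.45. The median over the 10 genes was 24.4% for anti-miR-21 and 24.6% for ACEi. Of the 10 genes, 9 remained above WT under anti-miR-21 (23.9% of all genes called higher), each without overlap (14.7% of all genes), from 1.66 for Csf1 to 4.52 for Gpnmb on the log2 scale, and 10 remained above WT under ACEi (25.2% of all genes called higher), each without overlap (23.9% of all genes), from 0.40 for Csf1r to 3.91 for Lyz2.

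**Figure D3:**
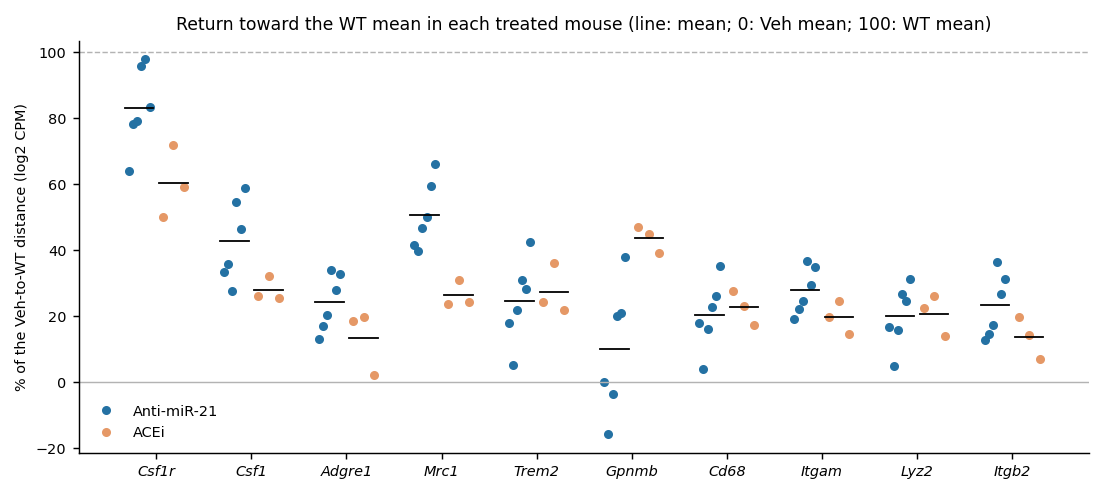
Return of each gene toward WT in each treated mouse on the y axis, in percent of the Veh-to-WT distance on log2 CPM; blue points are the 6 anti-miR-21 mice, orange points the 3 ACEi mice, lines the means. Csf1r lies highest in both groups (83.2% and 60.4%), the Mrc1 points of the groups do not overlap, and 2 anti-miR-21 mice lie below 0% for Gpnmb.

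The treated mice also differed from each other in a way that ran through most of the genes. The median return over the 10 genes was 17.9%, 15.9%, 21.2%, 35.4%, 28.2% and 36.6% in anti-miR-21 mice 1 to 6, and 24.1%, 28.5% and 19.7% in the 3 ACEi mice. Mouse 6, with the largest median, ranged from 31.3% for Lyz2 and Itgb2 to 83.5% for Csf1r. Mouse 2, with the smallest, returned by 5.08% for Lyz2, 5.32% for Trem2 and 4.11% for Cd68 and was beyond the Veh mean for Gpnmb (-15.7%), yet it returned by 78.4% for Csf1r and 39.8% for Mrc1. A mouse with little change in the lysosomal and lipid-handling genes could thus still show lower Csf1r and Mrc1. The summed proximal tubule markers were lowest in mouse 2 (6170 CPM) and highest in mouse 6 (10328 CPM) of the anti-miR-21 group, and their part in these values was not tested.

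The log2 ratio of one gene to another in the same mouse shows where the genes parted, whatever the shared part of their rise. Relative to Csf1r, the other 9 genes rose in Veh by a median of 3.0 on the log2 scale, or 1.84 with log2(FPKM + 1). Mrc1 relative to Adgre1 was -0.07 ± 0.31 (SD, n = 5) in WT and -0.33 ± 0.33 (n = 6) in Veh, which overlapped. It was -1.26 ± 0.24 (n = 6) in the anti-miR-21 group, where each mouse was below each Veh mouse, and -0.78 ± 0.34 (n = 3) in ACEi. Gpnmb relative to Trem2 stood at -0.30 ± 0.59 (n = 5) in WT and -0.30 ± 0.66 (n = 6) in Veh, at 0.38 ± 0.39 (n = 6) under anti-miR-21 and at -1.06 ± 0.32 (n = 3) under ACEi. The treated groups did not overlap in this ratio (-0.09 to 0.90 against -1.36 to -0.72), and each overlapped the Veh mice, of which mouse 4 was lowest at -1.34. Gpnmb relative to Adgre1 separated them too, with -1.97 to -0.08 under anti-miR-21 and -3.24 to -2.82 under ACEi. So did Lyz2 relative to Adgre1, with 3.46 to 4.20 under anti-miR-21 and 3.17 to 3.39 under ACEi. Trem2 relative to Adgre1 overlapped between them, with -1.88 to -0.76 under anti-miR-21 and -2.14 to -1.60 under ACEi. Csf1 relative to its receptor went from -3.23 ± 0.49 (n = 5) in WT to -1.33 ± 0.16 (n = 6) in Veh, and it stayed at -1.73 ± 0.30 (n = 6) and -1.53 ± 0.05 (n = 3) with treatment. By contrast Cd68 relative to Adgre1 stayed near 0 in all 4 groups, from -0.37 in ACEi to 0.16 in the anti-miR-21 group.

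**Figure D4:**
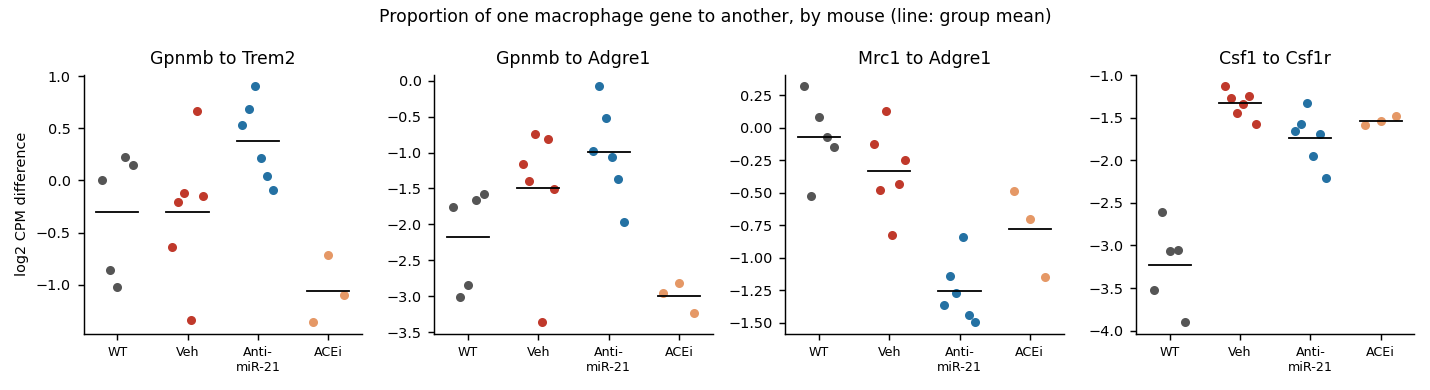
Difference in log2 CPM between 2 macrophage genes in the same mouse on the y axis, by group, each point 1 mouse and the line the group mean; the y axes differ between panels and do not start at 0. Gpnmb to Trem2 is higher in each anti-miR-21 mouse than in each ACEi mouse, and Mrc1 to Adgre1 is lowest in the anti-miR-21 group (mean -1.26).

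Levels can be compared between genes only per transcript length, for which the deposited FPKM was used. Those values are scaled to library totals without TMM factors, so they order genes within a group. The entries of Csf1r and Mrc1 are marked by the authors as confounded with another gene. In Veh the order of mean FPKM was Lyz2 (722 ± 87.0, SD, n = 6), Csf1r (69.8 ± 10.1), Cd68 (57.9 ± 5.31), Csf1 (29.2 ± 3.99), Itgb2 (24.4 ± 2.44), Trem2 (22.1 ± 7.05), Adgre1 (20.5 ± 2.47), Itgam (11.2 ± 2.11), Mrc1 (9.76 ± 1.99) and Gpnmb (7.04 ± 3.39). Lyz2 stood far above the rest. The ranges over mice of Csf1r and Cd68 overlapped, as did those of Csf1, Itgb2, Trem2 and Adgre1 with their neighbours and those of Itgam, Mrc1 and Gpnmb, while Cd68 was above Csf1 and Adgre1 above Itgam in every mouse. In WT the first place was taken by Csf1r (21.3 ± 0.812, n = 5), whose range overlapped that of Lyz2 (15.6 ± 6.13), and no other gene exceeded a mean of 2.65. Under anti-miR-21 Gpnmb (4.20 ± 2.73, n = 6) had a higher mean than Itgam (3.71 ± 1.01) and Mrc1 (2.07 ± 0.641), with overlapping ranges, whereas under ACEi it was again the lowest (1.20 ± 0.163, n = 3) and below every Mrc1 value (3.41 to 4.38).

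**Figure D5:**
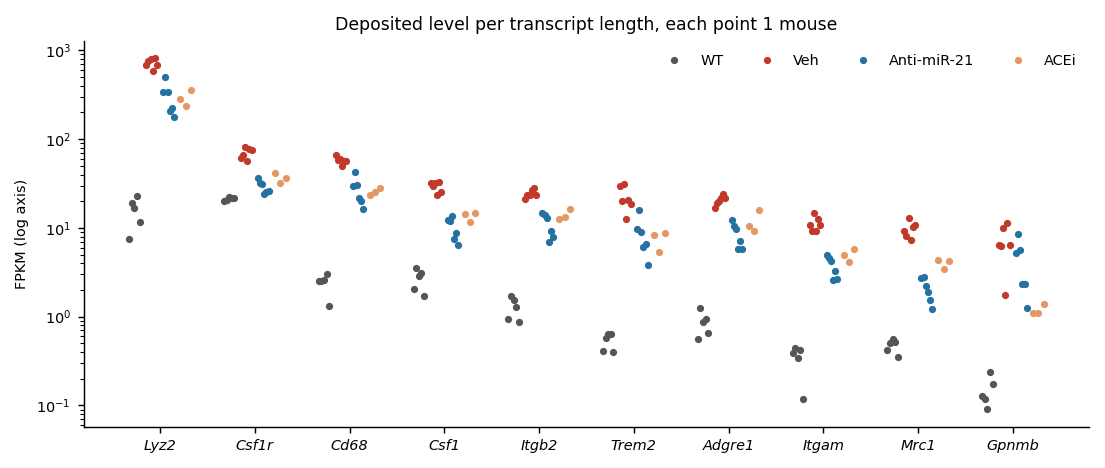
Deposited FPKM of each gene on a log y axis, genes ordered by their mean in Veh, each point 1 mouse and each colour a group. Lyz2 is highest in Veh (mean 722), Csf1r and Lyz2 stand above all others in WT, and Gpnmb is lowest in ACEi (1.10 to 1.39).

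The other genes of the pathway and of macrophage states were read from lists, and their counts stand beside the same background as the 10 genes. Of 21 genes of CSF1R signalling and phagocyte transcription factors, 18 rose in Veh against WT and 2 fell, with a median of 1.52. Spi1, which encodes PU.1, went from 3.01 ± 0.578 CPM (n = 5) to 39.0 ± 3.67 (n = 6), a rise of 3.69 (adjusted p = 5.74e-13), and was lower by 1.03 (adjusted p = 1.17e-06) with anti-miR-21 and by 0.82 (adjusted p = 0.000482) with ACEi. Csf2, the GM-CSF gene, was highest in the list, with 83 counts over the 6 Veh mice and 0 over the 5 WT mice, at least 15.5-fold higher in Veh against a floor of 3 counts over the WT group. Nr1h3, the lipid-sensing receptor LXRα, which liver and tubule cells also express, was lowest and fell by 1.21 (adjusted p = 1.45e-08). Anti-miR-21 lowered 18 of these 21 genes and raised 2 (median -0.78), and ACEi lowered 16 and raised 2 (median -0.53).

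The α chains that can pair with Itgb2 in place of Itgam rose as well, 3 of 3. Itgax (CD11c) went from 2.52 ± 1.04 CPM (n = 5) in WT to 49.7 ± 4.06 (n = 6) in Veh, 24.3 ± 7.02 (n = 6) under anti-miR-21 and 32.2 ± 3.79 (n = 3) under ACEi, and both falls passed (adjusted p = 6.56e-05 and 0.0314). Itgal, the lymphocyte chain, rose by 2.66 (adjusted p = 1.71e-07), fell by 0.73 (adjusted p = 0.0207) with anti-miR-21 and differed from Veh by -0.03 (adjusted p = 0.952) with ACEi. Itgad had 91 counts over the Veh mice and 1 over the WT mice, a ratio of 51.1 with a 95% counting interval of 8.94 to 2039. Such a counting interval pools the counts of each group and leaves out the spread between mice, which for Itgad was 4 to 28 counts in Veh. Of these 3 α chains only Itgax passed in both treatments.

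Among resident macrophage genes, 9 of the 12 tested (of 14) rose in Veh and 1 fell, with a median of 2.53. C1qc, a subunit of complement C1q, rose most (4.44, adjusted p = 4.95e-13), and Mertk, a receptor for apoptotic cells, fell by 0.51 (adjusted p = 0.000213). With anti-miR-21 8 fell and 1 rose, and with ACEi 6 fell and 1 rose. All 9 monocyte genes rose, Fcgr1 (CD64) the most (5.03), and 6 fell with anti-miR-21 and 3 with ACEi. Of 12 genes of lipid-associated macrophages, the state in which Trem2 and Gpnmb are high, 7 rose and 5 fell, from 4.74 for Mmp12, a macrophage elastase, to -3.12 for Cd36, a fatty acid transporter that tubule cells carry in quantity. Anti-miR-21 lowered 6 of the 12 and raised 5, and ACEi lowered 6 and raised 4. All 8 tested genes of alternative activation (of 10) rose, from 1.68 for Retnla to 5.55 for the scavenger receptor Msr1, and 7 fell with anti-miR-21 and 3 with ACEi. All 9 genes of classical activation rose as well, from 0.83 for Nos2 to Il6, which had 1 count over the 5 WT mice and a ratio of Veh to WT of 120 with a 95% counting interval of 21.3 to 4765, and 5 fell with anti-miR-21 and 4 with ACEi. None of the genes of these lists was called between anti-miR-21 and ACEi.

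Markers of other cells did not all move with the macrophage genes. All 5 pan-leukocyte markers rose in Veh, and Ptprc, which encodes CD45, went from 5.98 ± 1.77 CPM (n = 5) to 48.7 ± 8.86 (n = 6), then 27.9 ± 6.56 (n = 6) under anti-miR-21 and 36.6 ± 4.29 (n = 3) under ACEi. The fall with anti-miR-21 was 0.80 (adjusted p = 0.000299), and the difference with ACEi was -0.41 (adjusted p = 0.113). The summed 5 markers were at 28.7 to 49.0 CPM in WT, 429 to 492 in Veh, 175 to 305 under anti-miR-21 and 255 to 337 under ACEi, with no overlap between Veh and either treated group. Dendritic cell markers rose in 6 of 6, T and NK cell markers in 5 of 6 and B and plasma cell markers in 4 of 5, and with ACEi none of these 17 genes was called. The rises ran from 1.17 (Zbtb46) to 3.97 (Ccr7) for dendritic cells, and Cd4 (3.79) and Jchain (2.03) led the lymphocyte lists. Ncr1 (2.03, adjusted p = 0.0595) did not pass. With anti-miR-21 2 of the dendritic, 4 of the T and NK and 2 of the B and plasma cell markers fell. Of all genes tested, 30.5% were called lower with anti-miR-21 and 19.1% with ACEi, which had 3 mice. Neutrophils share Itgam, Itgb2 and Lyz2 with macrophages. Of 10 neutrophil markers 5 passed the filter and 3 rose, led by Csf3r (3.24, adjusted p = 5.89e-09), while S100a8 was at 0.371 ± 0.250 CPM (n = 5) in WT and 0.470 ± 0.173 (n = 6) in Veh, and Ly6g was at 0 to 0.140 CPM in every mouse. The part of neutrophils in the values of Itgam, Itgb2 and Lyz2 was not tested beyond these levels. All 5 fibroblast markers rose, from 1.68 for Dcn to 4.36 for Col1a1, and 4 of 5 adipocyte markers rose, led by Adipoq (3.96, adjusted p = 0.0105), which ranged from 0 to 33.1 CPM within Veh. All 4 proximal tubule markers fell, from -1.87 for Slc5a2 to -2.94 for Slc22a6, as did 3 of 6 other nephron markers, of which Slc12a3 fell most (-1.85). Among 4 endothelial markers 2 rose, Cdh5 most (0.66), and Kdr fell by 0.78. Both treatments raised all 4 proximal tubule markers, and anti-miR-21 lowered 4 fibroblast markers and ACEi 3. Of the 5 adipocyte markers 4 fell with ACEi and none with anti-miR-21. None of the markers of all these cell types was called between anti-miR-21 and ACEi. The part of these cells in the macrophage gene values was not tested beyond the fits that leave out the mice of high adipocyte score or hold that score as a term.

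Of 6 paralogues of the 10 genes 5 rose in Veh. Trem1, an activating receptor of neutrophils and monocytes, rose most, with 303 counts over the Veh mice and 4 over the WT mice. Anti-miR-21 lowered 3 of the 6 and ACEi 2. Col4a3, kept in the same list, fell by 2.52 in Veh (adjusted p = 7.13e-12), and in the anti-miR-21 group it was 0.64 above Veh (adjusted p = 0.000302).

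The genes whose course over the 20 mice was most like that of each member were found by the root mean square difference of log2 CPM, each centred on its WT mean, and are given as a description. Csf1r lay nearest to Arhgap4 (0.13) and Sfxn3 (0.13), and its nearest member, Csf1, was at 1.5. Csf1 lay nearest to Mrc2, the fibroblast collagen receptor related to Mrc1 (0.17), and Fstl1 (0.17), and Mrc1 to Ccdc80 (0.25) and Sulf1 (0.26), matrix genes of stromal cells. The nearest member to Mrc1 was Csf1 (0.57). Adgre1 and Itgb2 were each other's nearest members (0.26), with Tlr2 nearest to Adgre1 and Siglece and H2-Aa to Itgb2. Trem2 lay nearest to Cd84 and C3ar1, Cd68 to ENSMUSG00000089672, which carries no symbol in the table used, and Fcer1g, Itgam to Itgax and Ms4a6b, and Lyz2 to Ctss and Aoc1. Gpnmb had no close match, with Kif1a at 0.60 and Mmp27 at 0.67, and its nearest member was Trem2 at 0.67.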

How the data were processed

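Kidney RNA of 20 mice was read as 100 bp paired-end reads by the study. The authors aligned them to GRCm38 with the OmicSoft aligner and deposited an estimated count (expected count) per Ensembl gene, not normalized between libraries, of which 29.1% of positive values are not whole. The authors also deposited FPKM per gene, normalized to length and library total, mostly on UCSC gene models, and 3 FPKM columns of no listed sample were not used. Groups came from the labels.

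Rounded counts passed filterByExpr (minimum count 10, total 15) and TMM scaling. The quasi-likelihood test came from edgeR 4.0.16 (R 4.3.3), with 1 coefficient per group over all 20 mice, Benjamini-Hochberg adjustment over 17622 genes and a threshold of 0.05. The SE is the absolute log2 fold change divided by the root of the F statistic. CPM used TMM-scaled libraries and log2 CPM a prior count of 2. Alternatives used DESeq2 1.42.0, limma 3.58.1 on log2(FPKM + 1) and log2(FPKM + 0.1), other scalings and filters, fits within 1 flow cell or with only 2 groups, fits with a term for flow cell or adipocyte score, and fits leaving out 1 mouse at a time. The fit without the 4 mice whose adipocyte score exceeds 2 was chosen after seeing the data. Gene positions came from GENCODE M21 (GRCm38). Figures used matplotlib 3.10.9.

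The 10 genes and the lists of other genes were chosen with earlier results of these data known. Named were all 10, from each list the genes with the highest and lowest log2 fold change between Veh and WT, Il34, Tyrobp, Spi1, Itgal, Itgax, Itgad, Lyz1, Col4a3 and Ptprc, and the 2 genes most like each of the 10. Some genes that this rule names are not reported here. Arg1 and the overlapping genes Hmgxb3, Gm49368 and Mir511 were added after their values were seen.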

Additional observations from a re-analysis of the deposited data

Results flagged for a closer look

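Of the 30 sets of WT, Veh and anti-miR-21 values of the 10 genes, none held a mouse far from the others by Dixon's test, which by chance marks about 1 set in 20, and the 3 ACEi mice are too few for it. Mrc1 differed between the treatments, with a log2 fold change of -0.87 for anti-miR-21 against ACEi by edgeR's quasi-likelihood test (adjusted p = 0.0304, lower in 6 of 6 anti-miR-21 mice than in any of 3 ACEi mice).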

How the results depend on the processing

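Between Veh and WT all 10 genes were called higher under each alternative. No paired analysis was possible because the labels name separate mice and pair none of them. For anti-miR-21 against ACEi the count of 1 became 0 with library totals, the adipocyte score as a term, only the 2 groups compared, flow cell A alone, flow cell B alone, limma on log2(FPKM + 1), limma on log2(FPKM + 0.1) and without the 4 mice of high adipocyte score, 2 with DESeq2 (Mrc1 lower, Gpnmb higher), and 0 to 1 when a mouse was left out. For ACEi against Veh it became 1 in flow cell A and 4 in flow cell B, and for anti-miR-21 against Veh 2 in flow cell B, where each lone treated mouse is assumed to vary like the other groups. Values that changed sign belonged to genes not called. They were, for anti-miR-21 against ACEi, Trem2 -0.0146, Cd68 -0.10 and Lyz2 -0.27 in flow cell A, Csf1 0.0437 in flow cell B, Cd68 -0.0021 and Lyz2 -0.0355 with log2(FPKM + 1), and Cd68 -0.0045 and Lyz2 -0.0358 with log2(FPKM + 0.1). Leaving out 1 mouse gave -0.0150 to 0.35 for Trem2, -0.0233 to 0.25 for Cd68 and -0.11 to 0.28 for Lyz2, below 0 without anti-miR-21 mouse 2 and, for Lyz2 (-0.0401), ACEi mouse 2. For anti-miR-21 against Veh, Gpnmb was 0.74 in flow cell B. With log2(FPKM + 1) the median return was 34.5% for anti-miR-21 and 33.4% for ACEi, and the median rise relative to Csf1r 1.84. The median Veh FPKM of the 10 genes was 23.3, or 19 divided by the TMM factors. The cause of these shifts was not tested. With 3 ACEi mice and 1 of them on flow cell A, differences from ACEi were the least precise, and genes with few WT counts had wide intervals.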

Other observations

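Arg1, which encodes arginase 1 and is read with Mrc1 as a gene of alternative activation, was picked out after its values were seen. It had 0, 1, 5, 15 and 23 counts in the WT mice, the first 3 on flow cell A and the last 2 on B. Veh mice 1 to 6 had 171, 101, 255, 28, 103 and 112. The rise was 3.27 on the log2 scale (edgeR, adjusted p = 7.92e-05). These counts do not overlap, but on CPM 1 pair of mice did, WT mouse 5 at 0.965 and Veh mouse 4 at 0.864. Under anti-miR-21 it had 0, 4, 2, 2, 1 and 1 counts, and under ACEi 5, 8 and 7. Every treated mouse was thus below every Veh mouse. The log2 fold change from Veh was -5.82 (edgeR, adjusted p = 1.08e-06) for anti-miR-21 and -3.95 (adjusted p = 0.0007) for ACEi, and the difference between the treatments was -1.87 (adjusted p = 0.399). Against WT Arg1 was called lower under anti-miR-21, at -2.55. Under ACEi the difference from WT was -0.68 (edgeR, adjusted p = 0.536), which did not pass. Veh mouse 4, lowest in Arg1, was also the lowest Veh mouse in Csf1r, Csf1, Mrc1, Trem2, Gpnmb, Cd68 and Lyz2. The same mouse was the highest Veh mouse in Adgre1 and Itgb2, and in Itgam it was neither.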
